A study of Homo sapiens with 8 samples.

Results

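The miR-320 family and miR-484 are microRNAs (short RNAs that guide Argonaute proteins to matching messenger RNAs) whose hairpins can be made without Drosha, the nuclease that releases most microRNA hairpins from longer transcripts. All 6 members were found by name in the deposited table of 2026 mature microRNA entries: hsa-miR-320a, hsa-miR-320b, hsa-miR-320c, hsa-miR-320d, hsa-miR-320e and hsa-miR-484. The table gives none of the 6 an arm suffix. The samples were HCT116 cells, a human colorectal cancer line, cultured without serum as floating spheroids and sorted after antibody staining for CD44v6, a splice variant of the cell-surface protein CD44 that marks stem-like colorectal cancer cells. There were 2 CD44v6-positive and 2 CD44v6-negative samples, all from this 1 line and freed of dead cells with propidium iodide. Each joins 2 sequencing entries of the same identity. Whether the samples of a group are separate cultures is not stated in the labels, so p-values cover the spread among these 4 libraries, which may be technical.

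In the route described for mouse and human mir-320 and for mir-484, RNA polymerase II starts transcription at the hairpin itself, so the hairpin carries a 7-methylguanosine cap. Exportin-1 carries it out of the nucleus and Dicer cuts it. In the mir-320 hairpin the capped strand is poorly loaded, and the 3′ strand becomes the microRNA. Members b to e were named for their sequence, and the capped route is best documented for mir-320a.

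The mature sequences below are RefSeq's on GRCh38.p14, 5′ to 3′, with the seed (bases 2 to 8, which pairs with targets) in capitals. They are shown because their shared stretches limit how far reads could be assigned to a single entry.
miR-320b: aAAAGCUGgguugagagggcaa
miR-320c: aAAAGCUGgguugagagggu
miR-320d: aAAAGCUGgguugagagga
miR-320e: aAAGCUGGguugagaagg
miR-484: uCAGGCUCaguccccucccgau

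The first 19 bases of miR-320b and miR-320c are identical, and miR-320d shares its first 18 bases with both. These 3 have the seed AAAGCUG. The annotated miR-320e starts 1 base further along the common sequence, so its seed is AAGCUGG. miR-484 has an unrelated seed, CAGGCUC, and a GC content of 63.6%, against 47.4% to 50.0% in miR-320b to miR-320e. How reads that match several entries were counted is not given in the sources used here, so the split between miR-320 entries is uncertain, and their sum is given beside them.

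The hairpin of MIR320B1 is printed with the mature part in capitals to show that the mature RNA sits in the 3′ arm, at bases 42 to 63 of 72.
MIR320B1: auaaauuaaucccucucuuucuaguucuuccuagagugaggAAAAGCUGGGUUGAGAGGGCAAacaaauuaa
The mature sequence lay in the 3′ arm in all 7 hairpins of miR-320b to miR-320e. In MIR484 it lay in the 5′ arm, at bases 8 to 29 of 79.

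The hairpins lie at scattered places, in GRCh38.p14 coordinates. MIR484 is on chromosome 16 (15643294 to 15643372, plus strand). Its 5′ end is 27 bases past an annotated start of NDE1 in GENCODE release 29, inside an NDE1 UTR. MIR320A, on chromosome 8, has its 5′ end 61 bases upstream of a start of POLR3D on the opposite strand. For the 7 other miR-320 hairpins the nearest annotated start of a gene other than a microRNA was 3094 to 11023 bases away. MIR320B1 is on chromosome 1 (116671746 to 116671817, plus strand) outside any other annotated gene, and an intron of NVL holds MIR320B2, on the minus strand of the same chromosome (224257040 to 224257110). MIR320C1 (21683518 to 21683589) and MIR320C2 (24321675 to 24321746) are on the plus strand of chromosome 18, opposite introns of ABHD3 and OSBPL1A. MIR320D1 on chromosome 13 (40727816 to 40727887, minus strand) and MIR320D2 on chromosome X (140926160 to 140926231, minus strand) overlap no other annotated gene. An intron of PRKD2 holds MIR320E, on the minus strand of chromosome 19 (46709282 to 46709354).

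The libraries differed widely in depth, with 919802 and 154481 reads in CD44v6-positive samples 1 and 2 against 7880631 and 4592278 reads in CD44v6-negative samples 1 and 2. The epithelial markers of the miR-200 family were abundant in each, at 11218 to 16750 reads per 1000000 in CD44v6-positive samples and 21073 to 23127 in CD44v6-negative samples. CD44v6-positive sample 2 stood apart from the other 3. It had 6247 reads per 1000000 of 2 stromal markers, against 852 in CD44v6-positive sample 1 and 838 to 1035 in the CD44v6-negative samples. The rise was in miR-143-3p alone, with 954 reads in CD44v6-positive sample 2. The other stromal marker, miR-145-5p, had 11 reads there and was lowest in that sample relative to depth. Its 3 intestinal markers summed to 6266, against 1197 in CD44v6-positive sample 1 and 1370 to 1717 in CD44v6-negative samples. Its 6 blood markers summed to 777, against 96.8 in CD44v6-positive sample 1 and 109 to 149 in CD44v6-negative samples. Of the 120 blood-marker reads in CD44v6-positive sample 2, miR-451a had 54 and miR-142-5p had 53. miR-142-3p had 4 and miR-150-5p had 1. The liver marker miR-122-5p was at 757, against 48.9 in CD44v6-positive sample 1 and 3.05 and 4.79 in the CD44v6-negative samples. All 6 blood markers and both stromal markers had reads in the table, and of the 3 muscle markers miR-206 had 0 reads in every sample. The labels give HCT116 cells alone as the source of all 4 samples. In bulk samples, more cells of a type and more RNA per cell cannot be told apart. Whether reads from other libraries entered CD44v6-positive sample 2 was not tested, nor was the part of these markers in the results below. The members' fold changes are therefore also given without that sample.

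**Figure D1:**
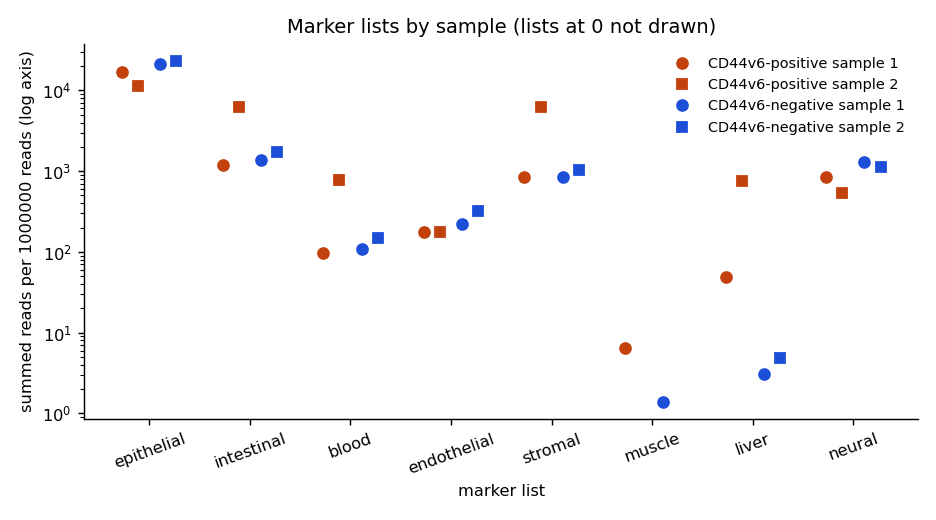
Summed reads per 1000000 miRNA reads (log axis) of 8 marker lists in each of the 4 samples, with CD44v6-positive samples in orange and CD44v6-negative samples in blue. The orange square, CD44v6-positive sample 2, lies highest for the intestinal, blood, stromal and liver lists.

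miR-320 reads made up a larger part of the library in CD44v6-positive cells. They were 0.713% of all miRNA reads in sample 1 (95% Wilson interval 0.696% to 0.730%) and 0.606% in sample 2 (0.568% to 0.646%) of the CD44v6-positive cells. In CD44v6-negative cells they were 0.224% (0.221% to 0.228%) and 0.280% (0.276% to 0.285%). These intervals cover counting error only, because PCR copies of a molecule are counted as separate reads. Both CD44v6-positive values lay above both CD44v6-negative values. After TMM scaling (a factor per library that reduces the pull of a few abundant entries), the summed family averaged 5978 ± 1555 CPM (reads per 1000000) in CD44v6-positive cells and 2860 ± 742 CPM in CD44v6-negative cells (SD, n = 2 each). The fitted log2 fold change of the sum, CD44v6-positive over CD44v6-negative as everywhere below, was 1.07 ± 0.47 (SE), and it was 1.53 without CD44v6-positive sample 2 and 0.66 without CD44v6-positive sample 1. In the fits of single entries, the median log2 fold change was -0.31 with all samples. It was -0.25 without CD44v6-positive sample 2 and -0.77 without CD44v6-positive sample 1. Wherever a sample is left out, its group has a single library, and the fit takes the spread from the other group's pair and assumes that the lone library varies likewise.

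Of the 6 members, 0 passed edgeR's quasi-likelihood test at a Benjamini-Hochberg adjusted p under 0.05, and 0 of the 570 entries tested did (0.0%). At an unadjusted p under 0.05, 2 members were higher (miR-320b and miR-320c), against 13.0% of tested entries higher and 30.5% in either direction, and 0 members were lower, against 17.5%. DESeq2 called 1 member, miR-320b, against 13.2% of tested entries, and limma-voom called 0 members and 4 entries in all. The 2 groups did not overlap in 4 members, all higher in CD44v6-positive cells. The shares of tested entries not overlapping were 24.9% in that direction, 34.6% lower and 59.5% in either direction. Among the 4 was miR-320e, which reached the filter on low counts through the CD44v6-positive samples, so its separation is tied to the filter. Log2 fold changes were positive for miR-320a to miR-320d, at 0.82 to 2.36, and negative for miR-484. That of miR-320e was positive too, but no direction is read from it because of the filter. Without CD44v6-positive sample 2 the log2 fold changes of miR-320a to miR-320d stayed positive, at 1.37 to 1.84. The median over all tested entries was -0.31. It moved to 0.04 with upper quartile and 0.01 with total count scaling. Without CD44v6-positive sample 1 it was -0.77, and without CD44v6-negative sample 2 it was 0.11. The members are therefore also given relative to it.

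**Figure D2:**
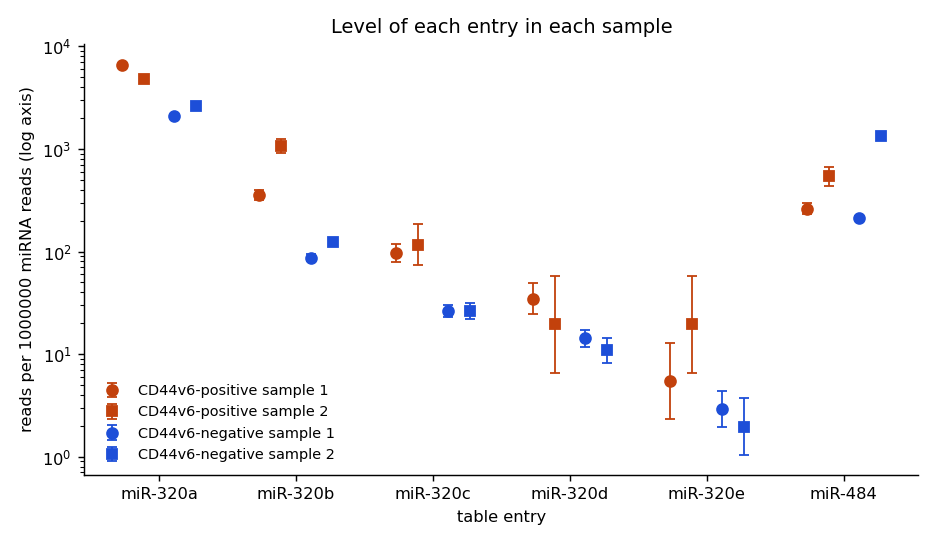
Level of each of the 6 entries in each sample, as reads per 1000000 miRNA reads before TMM scaling (log axis), with bars for the 95% Wilson interval. The 5 miR-320 entries lie higher in both CD44v6-positive samples (orange) than in both CD44v6-negative samples (blue), and miR-484 is highest in CD44v6-negative sample 2. No direction is read from miR-320e, which reached the filter on low counts through the CD44v6-positive samples.

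miR-320a, the founding member and by far the most abundant, had 6106 and 747 reads in CD44v6-positive samples 1 and 2, against 16662 and 12129 reads in CD44v6-negative samples 1 and 2. At their depths these were 6589 and 3893 TMM-scaled CPM in CD44v6-positive samples, against 3188 and 2199 CPM in CD44v6-negative samples. The groups did not overlap, but the lower CD44v6-positive and the higher CD44v6-negative sample were close. The log2 fold change was 0.96 ± 0.49 (edgeR adjusted p = 0.229), or 1.27 relative to the median entry. It was 0.41 without CD44v6-positive sample 1 and 1.50 without CD44v6-positive sample 2. Relative to the median entry of those fits, it was 1.18 and 1.75. miR-320a ranked 50 by mean CPM and 139 by log2 fold change among the 570 entries.

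miR-320b, which can come from either of its hairpins on chromosome 1, had the largest log2 fold change of the 6 over all 4 samples, but not without CD44v6-positive sample 2. It had 327 and 165 reads in CD44v6-positive samples 1 and 2, against 687 and 571 reads in CD44v6-negative samples 1 and 2. That was 353 and 860 CPM in CD44v6-positive samples, against 131 and 104 CPM in CD44v6-negative samples. CD44v6-positive sample 2 was 2.44 times sample 1, while the CD44v6-negative samples were close, and the groups did not overlap. The log2 fold change was 2.36 ± 0.63 (edgeR adjusted p = 0.110, DESeq2 adjusted p = 0.0101), or 2.67 relative to the median entry. Without CD44v6-positive sample 2 it was 1.80 (edgeR adjusted p = 0.138), just under the 1.84 of miR-320c. Without CD44v6-positive sample 1 it was 2.75 (edgeR adjusted p = 0.0199), but there the lone CD44v6-positive library is the one that stood apart and the spread comes from the CD44v6-negative pair alone.

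miR-320c, from a hairpin pair on chromosome 18, was the steadiest between the CD44v6-positive samples. It had 89 and 18 reads in CD44v6-positive samples 1 and 2, against 208 and 121 reads in CD44v6-negative samples 1 and 2. That was 96.0 and 93.8 CPM in CD44v6-positive samples, against 39.8 and 21.9 CPM in CD44v6-negative samples, with no overlap. The log2 fold change was 1.62 ± 0.60 (edgeR adjusted p = 0.141), or 1.93 relative to the median entry, and it was 1.49 and 1.84 without CD44v6-positive samples 1 and 2. Relative to the median entry of those fits, it was 2.26 and 2.09.

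The shortest annotated sequences, miR-320d and miR-320e, were read rarely. miR-320d had 32 and 3 reads in CD44v6-positive samples 1 and 2, against 112 and 50 reads in CD44v6-negative samples 1 and 2. In CPM these were 34.5 and 15.6 in CD44v6-positive samples, against 21.4 and 9.07 in CD44v6-negative samples, so the groups overlapped after TMM scaling, though not before it. Its log2 fold change of 0.82 ± 0.76 (edgeR adjusted p = 0.512), or 1.12 relative to the median entry, was -0.074 without CD44v6-positive sample 1. The median over all tested entries was -0.77 there, and miR-320d was 0.69 relative to it. miR-320e, whose seed is shifted by 1 base, had 5 and 3 reads in CD44v6-positive samples 1 and 2, against 23 and 9 reads in CD44v6-negative samples 1 and 2. In CPM that was 5.40 and 15.6 in CD44v6-positive samples, against 4.40 and 1.63 in CD44v6-negative samples. This entry reached the filter on low counts through the CD44v6-positive samples, where it was higher, so no direction is read from it. The log2 fold change was 1.53 ± 1.00 (edgeR adjusted p = 0.345), or 1.84 relative to the median entry, and it ran from 1.03 without CD44v6-positive sample 2 to 2.50 without CD44v6-negative sample 1. Before TMM scaling, the 3 reads of either entry in CD44v6-positive sample 2 have a 95% Wilson interval of 6.60 to 57.1 reads per 1000000. For miR-320d this takes in the 14.2 and 10.9 reads per 1000000 of CD44v6-negative samples 1 and 2. For miR-320e the 2.92 and 1.96 reads per 1000000 of CD44v6-negative samples 1 and 2 lie below it, while the interval of CD44v6-positive sample 1, 2.32 to 12.7, takes in the higher of them.

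miR-484 did not share the direction of miR-320a to miR-320d. It had 241 and 84 reads in CD44v6-positive samples 1 and 2, against 1666 and 6089 reads in CD44v6-negative samples 1 and 2. In CPM these were 260 and 438 in CD44v6-positive samples, against 319 and 1104 in CD44v6-negative samples. CD44v6-negative sample 2 was 3.46 times CD44v6-negative sample 1, and CD44v6-negative sample 1 lay between the CD44v6-positive samples. The log2 fold change was -1.04 ± 0.72 (edgeR adjusted p = 0.373), or -0.73 relative to the median entry. It turned to 0.31 without CD44v6-negative sample 2, or 0.20 relative to the median entry, so its sign depends on that library. Relative to the median entry it was also -0.073 without CD44v6-positive sample 1 and 0.12 with no filter. The log2 fold change itself was -0.94 with total count scaling and -1.76 with a correction for GC content.

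**Figure D3:**
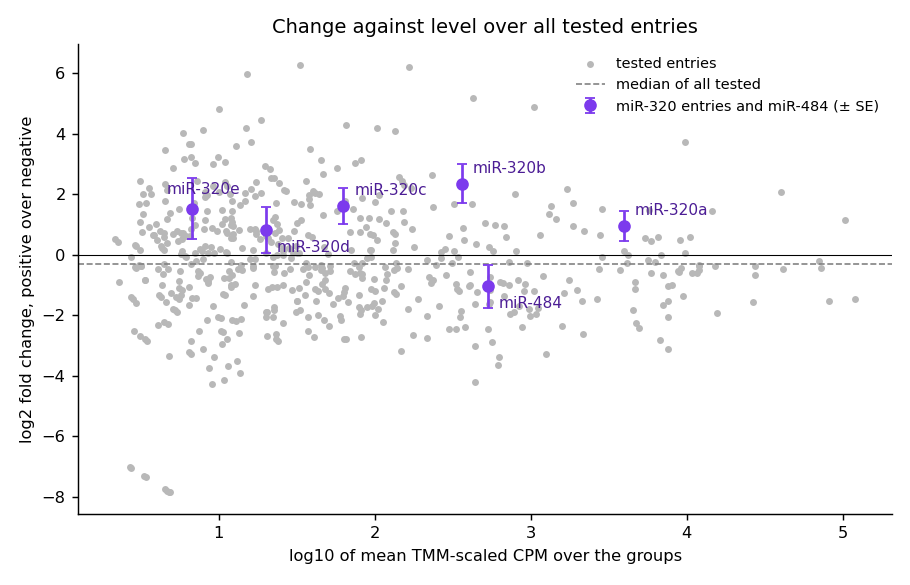
Log2 fold change (CD44v6-positive over CD44v6-negative) against log10 of the mean TMM-scaled CPM for the 570 tested entries (grey), with the 6 members in purple and bars of 1 SE. The 5 miR-320 entries lie above and miR-484 below the dashed median of -0.31, all within the cloud of other entries. The place of miR-320e is not read as a direction, since it reached the filter through the CD44v6-positive samples.

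The make-up of the family was nearly constant in 3 of the 4 samples. miR-320a took 93.1% of miR-320 reads in CD44v6-positive sample 1 (95% Wilson interval 92.5% to 93.7%) and 79.8% in CD44v6-positive sample 2 (77.1% to 82.3%). It took 94.2% in each CD44v6-negative sample. miR-320b took 4.99% (4.48% to 5.54%) and 17.6% (15.3% to 20.2%) in CD44v6-positive samples 1 and 2, against 3.88% (3.61% to 4.18%) and 4.43% (4.09% to 4.80%) in CD44v6-negative samples 1 and 2. The departure was thus in CD44v6-positive sample 2, the library with raised sums of the liver, blood, stromal and intestinal marker lists. Of the stromal list only miR-143-3p was raised. Per 100 miR-320a reads there were 22.1 miR-320b reads in that library, against 5.36 in CD44v6-positive sample 1 and 4.12 and 4.71 in the CD44v6-negative samples. The group means of the miR-320a share differed by -7.72 percentage points (exact two-sided permutation p = 0.333, the smallest that 2 against 2 samples allow), and by -1.08 points without CD44v6-positive sample 2. miR-320c took 1.36% and 1.92% in CD44v6-positive samples 1 and 2, against 1.18% and 0.939% in CD44v6-negative samples 1 and 2, with overlapping intervals between CD44v6-positive sample 1 and CD44v6-negative sample 1. miR-320d and miR-320e together stayed under 1% of family reads in each sample.

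Ratios within a library do not depend on scaling between libraries. There were 25.3 and 8.89 miR-320a reads per miR-484 read in CD44v6-positive samples 1 and 2, against 10.0 and 1.99 in CD44v6-negative samples 1 and 2. On the log2 scale the ratio averaged 3.91 ± 1.07 in CD44v6-positive and 2.16 ± 1.65 in CD44v6-negative samples (SD, n = 2 each), a difference of 1.75 within the spread of the samples (exact two-sided permutation p = 0.667). With CD44v6-negative sample 2 left out the difference was 0.59, and with CD44v6-negative sample 1 left out it was 2.91. The order of miR-320b and miR-484 did differ between the groups, a comparison chosen after the values were seen. miR-320b outnumbered miR-484 in both CD44v6-positive samples, at 1.36 and 1.96 reads per miR-484 read, and was rarer in both CD44v6-negative samples, at 0.412 and 0.0938.

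**Figure D4:**
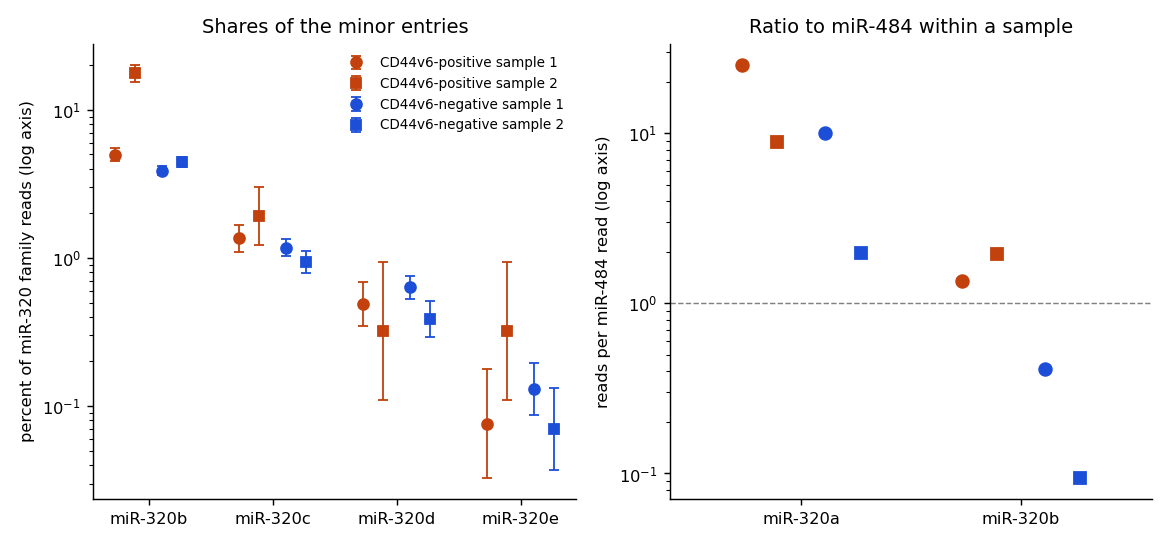
Left, the share of miR-320 family reads taken by miR-320b to miR-320e in each sample (log axis, bars for the 95% Wilson interval); right, reads of miR-320a and miR-320b per miR-484 read (log axis, dashed line at 1). The miR-320b share of 17.6% in CD44v6-positive sample 2 stands above the 3.88% to 4.99% of the other samples, and the miR-320b points lie above 1 in CD44v6-positive and below 1 in CD44v6-negative samples.

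Profiles over the 4 samples were compared by the Euclidean distance between log2(CPM + 1) values centred on each entry's mean. The 5 entries nearest to miR-320a were miR-1306-5p, miR-28-3p, miR-1247-5p, miR-4671-3p and miR-642a-5p, at distances of 0.333 to 0.417. Of the family, miR-320d was nearest to miR-320a at 0.554, followed by miR-320c at 0.903, miR-320e at 1.64 and miR-320b at 1.94, and miR-484 was at 2.63. Among those 5 entries miR-28-3p was the most abundant, at 7667 and 5138 CPM in CD44v6-positive samples 1 and 2 and 5255 and 3435 CPM in CD44v6-negative samples 1 and 2. The 5 entries nearest to miR-484 were miR-345-5p, miR-6886-5p, miR-548k, miR-330-5p and miR-324-3p, at 0.244 to 0.643. CD44v6-negative sample 2 was the highest library in each, as in miR-484, which follows from choosing them by that profile. miR-345-5p was at 410 and 552 CPM in CD44v6-positive samples 1 and 2, against 459 and 1460 CPM in CD44v6-negative samples 1 and 2.

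Mirtrons are the other large class made without Drosha, since splicing of a short intron yields their hairpin. Of 17 entries of 10 classical mirtrons, 8 could be tested. With edgeR 0 of the 8 passed an adjusted p under 0.05, as did 0.0% of all tested entries. At an unadjusted p under 0.05 there were 5, against 30.5% of tested entries in either direction. Rare entries such as miR-1237-3p reached the filter on low counts through the group where they were high. miR-1237-3p was at 11.9 and 36.5 CPM in CD44v6-positive samples 1 and 2, against 0.957 and 2.54 CPM in CD44v6-negative samples 1 and 2. The count of 5 is therefore partly tied to the filter, and no direction is read from the 8. With no filter, 9 of the 15 mirtron entries with reads had positive and 6 had negative log2 fold changes, with a median of 0.33, against -1.55 over all entries with reads. miR-877-5p, from an intron of ABCF1, was the most abundant, at 758 and 1782 CPM in CD44v6-positive samples 1 and 2, against 209.5 and 418 CPM in CD44v6-negative samples 1 and 2 (log2 fold change 2.01 ± 0.65, edgeR adjusted p = 0.123). Next came miR-877-3p, the other arm of that hairpin, where the log2 fold change was 2.12 ± 0.86 (edgeR adjusted p = 0.154), and miR-1226-3p, where it was 0.38 ± 0.66 (edgeR adjusted p = 0.719).

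**Figure D5:**
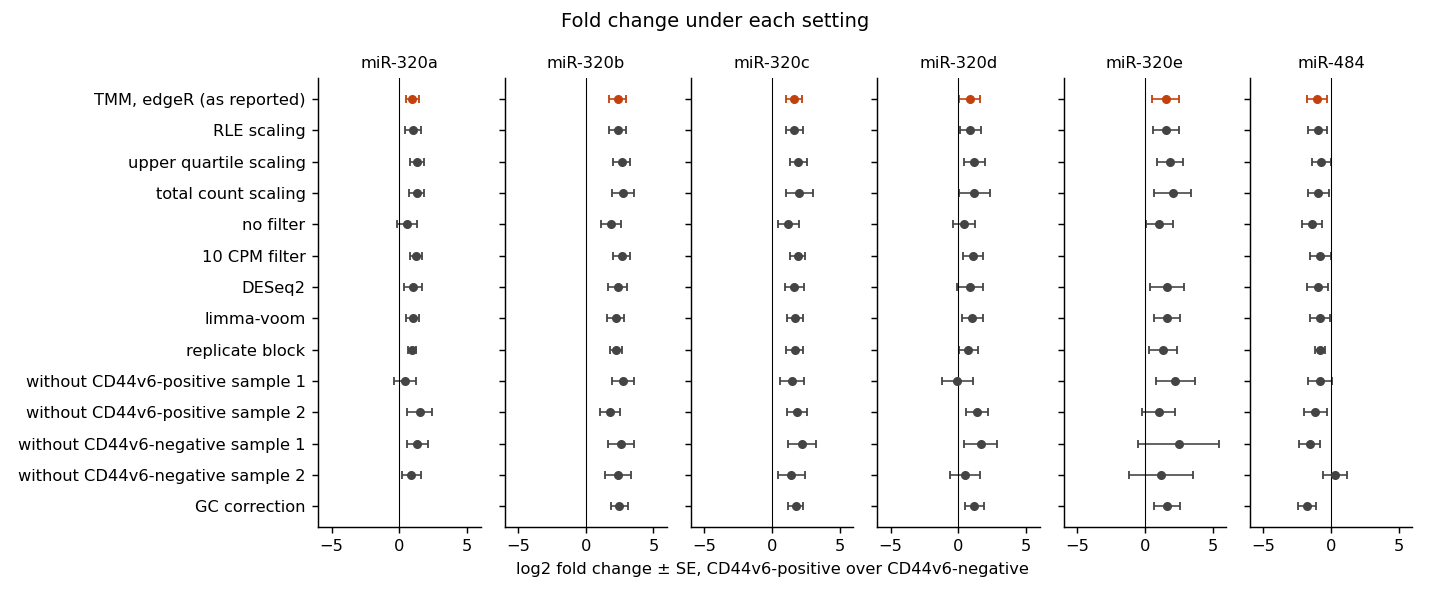
Log2 fold change (CD44v6-positive over CD44v6-negative, bars of 1 SE) of each member under the reported fit (orange) and 13 alternatives (dark grey). The points of miR-320b and miR-320c stay right of 0 throughout, that of miR-320d crosses 0 without CD44v6-positive sample 1, and that of miR-484 crosses 0 without CD44v6-negative sample 2. The fold changes are not relative to the median entry, which fell to -0.77 without CD44v6-positive sample 1 and rose to 0.11 without CD44v6-negative sample 2. Relative to it, miR-320d without CD44v6-positive sample 1 was 0.69.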

How the data were processed

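Small RNA libraries were made from total RNA with an Illumina kit and size-selected on a gel, per the labels' protocols. The authors deposited raw read counts of mature miRNAs in 1 table of 4 columns, each joining 2 of the 8 sequencing entries, per the file headers. A second deposited table holds a normalized signal, which equalled the raw count divided by 1 factor per column (0.576 and 0.156 for CD44v6-positive samples 1 and 2, 3.09 and 3.58 for CD44v6-negative samples 1 and 2). It entered no test. Per the submitters' processing notes, Bowtie 0.12.9, cutadapt 1.10, CASAVA 1.8.2, DESeq2 and build GRCh38 were used. For their settings and for reads that match several entries the sources used here give nothing.

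CD44v6-positive and CD44v6-negative samples were compared with edgeR 4.0.16 in R 4.3.3 (estimateDisp, glmQLFit, glmQLFTest) on raw counts after TMM scaling and filterByExpr (minimum count 10, minimum total count 15), which kept 570 of 2026 entries. Each SE was the size of the log2 fold change over the root of F. The code of the test was checked on simulated counts with planted changes and a spread fixed in advance. That check does not measure how well the test performs at the spread of these libraries. Alternatives were other scalings and filters, DESeq2 1.42.0, limma-voom 3.58.1, a replicate block, leaving out each sample, and a loess correction for GC content over the 497 tested entries with a RefSeq sequence. Members and lists were chosen with earlier results of these data known. The text names all members, the 5 entries nearest to miR-320a and to miR-484, and the 3 most abundant tested mirtrons.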

Additional observations from a re-analysis of the deposited data

How the results depend on the processing

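The number of entries called, 0 as reported, was 48 with total count scaling, 77 with no filter, 75 with DESeq2, 4 with limma-voom and 228 with a replicate block, and it ran from 26 to 55 with 1 sample left out. It was 0 with RLE scaling, upper quartile scaling, the 10 CPM filter and the GC correction. Of the entries at an unadjusted p under 0.05, 42.5% were higher in CD44v6-positive cells with TMM, 58.4% with upper quartile and 56.6% with total count scaling. The log2 fold change of summed miR-320 reads was 1.46 with upper quartile scaling and 0.66 with no filter, and ran from 0.66 to 1.53 with 1 sample left out. In the fits of single entries, the median entry was at -1.55 with no filter and at -0.77 without CD44v6-positive sample 1. Leaving out samples 1 at a time, log2 fold changes ran from -0.074 to 1.63 for miR-320d and, for miR-484, from -1.60 to 0.31, and the difference in share ran from -0.229 to 0.0160 percentage points for miR-320d and from -0.0237 to 0.221 for miR-320e. Relative to the median entry, these log2 fold changes ran from 0.37 to 1.76 for miR-320d and from -1.47 to 0.20 for miR-484. The cause was not tested. miR-320b passed an adjusted p under 0.05 with total count scaling, with DESeq2, with the replicate block and, in a fit with 1 CD44v6-positive library whose spread comes from the CD44v6-negative pair alone, without CD44v6-positive sample 1. miR-320a and miR-320c passed with the block, and the summed family did not. With the block 228 of the 570 tested entries passed. That fit estimates nearly as many terms as there are libraries, so its p-values lean on spread pooled over entries. The labels give no sign that equal replicate numbers mark shared cultures. Deviations of same-numbered samples correlated at 0.375 over 570 entries, from only 2 pairs, and with the block the log2 fold changes were 0.94 for miR-320a (edgeR adjusted p = 0.00923), 2.23 for miR-320b (edgeR adjusted p = 3.5e-06), 1.65 for miR-320c (edgeR adjusted p = 0.0182) and -0.81 for miR-484 (edgeR adjusted p = 0.0800, or 0.170 where the family enters as a sum). miR-320e gave no value with the 10 CPM filter. The GC correction gave no value for miR-320a and the family sum. Depth limits miR-320d and miR-320e most, since a count of 3 reads is 19.4 reads per 1000000 in CD44v6-positive sample 2.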

Other observations

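Among entries with a RefSeq sequence, others that share a seed with the members were scarce. miR-4429, with the seed AAAGCUG of miR-320b to miR-320d, had 1 read in CD44v6-positive sample 1, none in sample 2 and 1 read in each CD44v6-negative sample. miR-3155a and miR-3155b, with the seed CAGGCUC of miR-484, each had 1 read in CD44v6-positive sample 1 and none in sample 2, against 4 reads and 1 read in CD44v6-negative samples 1 and 2.

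Of 8 entries that overlap small nucleolar RNAs, 4 could be tested, and their log2 fold changes had a median of 0.22, with 2 positive and 2 negative. With upper quartile and with total count scaling 3 of the 4 were positive. Without CD44v6-positive sample 2, 5 could be tested, with a median of 0.51, and without CD44v6-positive sample 1 the median was -0.49. Over all tested entries the medians of these fits were -0.25 and -0.77. With 1 library in a group, an entry can pass the filter through that library alone, so no direction is read from these fits. miR-3607-3p was the highest at 2.57 ± 0.81 (edgeR adjusted p = 0.117). miR-451a, a red blood cell microRNA cut by AGO2 and not by Dicer, had 14 and 54 reads in CD44v6-positive samples 1 and 2, against 130 and 42 reads in CD44v6-negative samples 1 and 2. At their depths that was 15.1 and 281 TMM-scaled CPM in CD44v6-positive samples, against 24.9 and 7.62 CPM in CD44v6-negative samples. The highest value was in CD44v6-positive sample 2, the library that also held the highest miR-320b share. A link between miR-451a and that share was not tested.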
